A study of Mus musculus with 33 samples.

Results

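Liver RNA of nonfasted mice was measured 24 h after an injection of rapamycin (10 mg/kg, 2 arrays) and after an injection of the vehicle alone, saline with ethanol (0.9% NaCl and 2% ethanol, 2 arrays). All 4 mice were adult males. They were chosen by their titles out of 33 arrays. The other 29 come from fasted and refed mice and serve here to estimate the spread between arrays and to show the drug effect in other feeding states. The labels give neither a strain nor a genotype, state no pooling of animals, and do not say how much the nonfasted mice ate after the injection. Each array held 12488 probe sets, and every value below is a deposited probe set intensity. The number of arrays, 2 in each group, limits the precision. The comparison asks what rapamycin changes in the liver transcriptome when no fast precedes it.

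Rapamycin binds the immunophilin FKBP12, the product of Fkbp1a, and the pair inhibits mTORC1, the protein kinase complex that couples amino acids and insulin to growth. In liver, mTORC1 promotes translation through S6 kinase and the eIF4E-binding proteins, promotes lipogenic transcription through SREBP-1c, and restrains autophagy and lysosome formation. Prolonged exposure also disturbs mTORC2, which carries part of the insulin signal that lowers gluconeogenic transcripts.

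Some properties of the arrays come before the results. On the rapamycin arrays 36.4% and 35.3% of all values lay at or below 0, against 24.3% and 24.6% on the vehicle arrays. Over all 33 arrays this share falls into 2 sets on either side of 31%, with 16 and 17 arrays. Both nonfasted rapamycin arrays belong to the set with more such values and both nonfasted vehicle arrays to the set with fewer, so within these 4 arrays the array set and the drug cannot be told apart. Values were therefore floored at 30, the floor given in the header of the authors' own table, before log2 was taken. Rapamycin array 1 stood apart in a small group of probe sets. Sdc4, a cell-surface heparan sulfate proteoglycan, read 656 and -34 on the rapamycin arrays, against 38 and -3 on the vehicle arrays. An Actb probe set was likewise high on that array alone, at 1147, against 170 and 154 on the vehicle arrays. The same probe sets were high together on all 5 arrays of uninjected fasted mice and on all 3 vehicle arrays at 6 h, so it also occurs without the drug. Its part in the results below was not tested beyond leaving the array out.

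**Figure D1:**
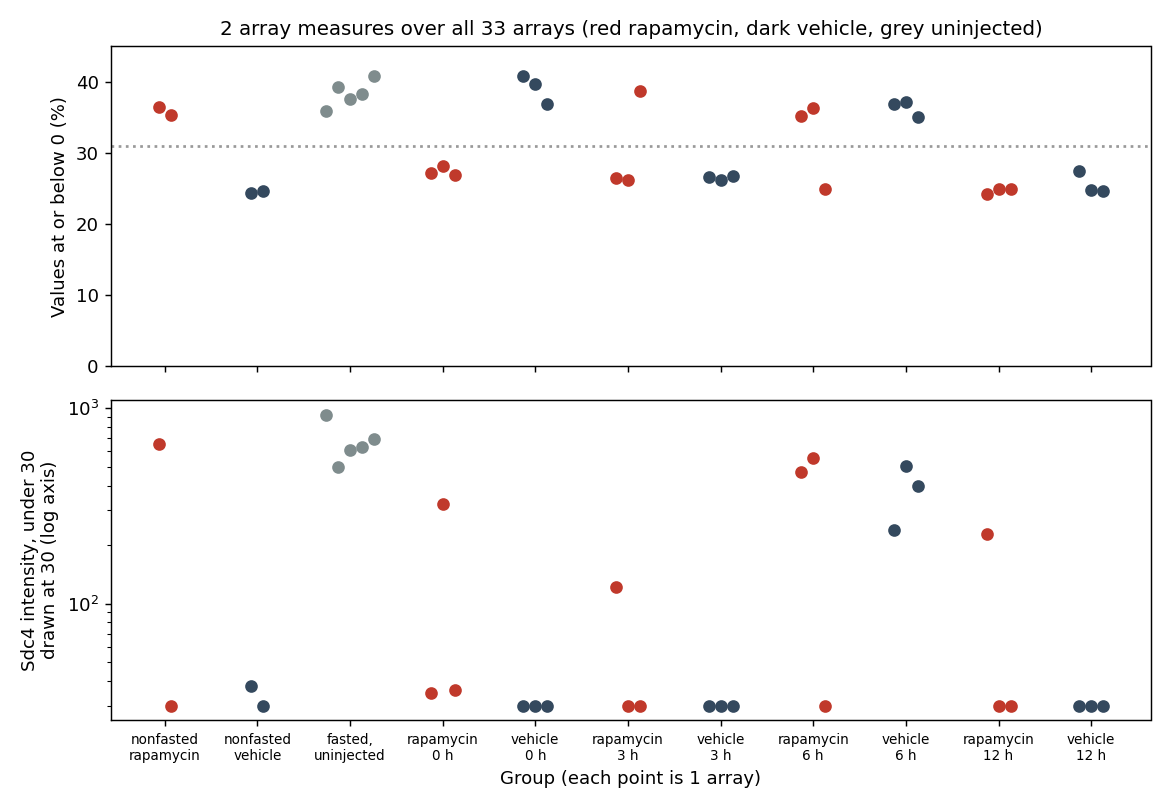
Share of values at or below 0 in percent (upper axis; dotted line at 31%) and intensity of the Sdc4 probe set (lower axis, log scale, values under 30 drawn at 30) on each of 33 arrays, grouped by treatment. Both nonfasted rapamycin arrays lie above the line and both nonfasted vehicle arrays below it, and rapamycin array 1 is the only array of these 4 with Sdc4 far above the floor.

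The tissue label was borne out by liver genes. All 12 hepatocyte markers on the array were above 30, with summed intensities of 31911 and 31551 on the rapamycin arrays and 33899 and 33870 on the vehicle arrays. Kupffer cell and macrophage markers summed to 2383 and 2157, against 1948 and 2473 in vehicle, which overlap, and 3 of 17 were at or below 30 on all 4 arrays. Of the T and NK cell markers 13 of 18 were at or below 30 on all 4 arrays, among them Cd3e and Cd8a. Endothelial markers summed to 495 and 696, against 702 and 796, and 6 of 13 were at or below 30 on all 4 arrays. Over the 10 markers that were tested the sums overlapped (550 and 724, against 695 and 815). Kdr read 27 and 50 in rapamycin livers and 89 and 79 in vehicle livers, while Eng overlapped (265 and 376, against 281 and 390). Neutrophil markers differed within both groups (2013 and 476, against 274 and 1045), mainly through Lcn2. In whole liver RNA, fewer cells of a type and less RNA per cell cannot be told apart.

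After rapamycin 11 of 6568 probe sets rose (0.167%) and 55 fell (0.837%) in limma's moderated test at an adjusted p under 0.05. The genes below were named by a fixed rule, except Pklr, Lifr, Erbb3, Cmas, Gtf3c1, Polr2g, Cyp4a10 and the list members that did not pass, which were chosen after their values were seen. The genes that rose include the glycolytic enzyme gene Pklr and the membrane protein gene Ms4a1, both more than 2-fold. Those that fell include the kinase gene Mknk2, the receptor genes Lifr and Erbb3, the fatty acid hydroxylase gene Cyp4a14 and the immunoproteasome gene Psmb9. At an unadjusted p under 0.05, 195 probe sets were higher and 459 lower. Many of the calls are of dim probe sets: in 27 of 66 every array of the lower-valued group was at or below 30, and 17 of 66 had a log2 difference under 0.5 in size. Among the 3342 probe sets whose mean over all 33 arrays was at least 60, 4 rose (0.12%) and 13 fell (0.389%), and all 17 are among the 66. With each array scaled to 1 trimmed mean the split was 22 higher and 32 lower. When the fit held a term for the array set, estimated on 6 arrays of other groups, 7 rose and 13 fell, and 15 of the 66 were among them. Leaving out rapamycin array 1 gave 23 higher and 30 lower, and leaving out vehicle array 1 gave 6 higher and 36 lower. Of 21 named probe sets that passed, 7 to 10 still passed without any given array, 6 after adjustment for the array set, 8 with a floor of 6.31, and 1 each with a generalised log in place of the floor, with the 4 arrays fitted alone, and with the array set and the lower floor together.

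**Figure D2:**
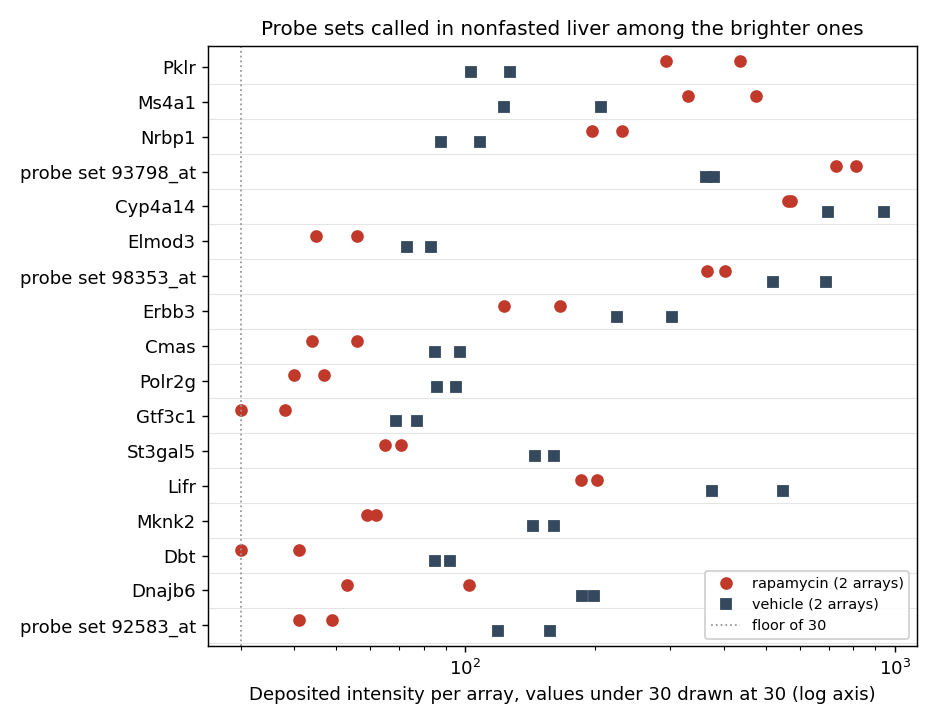
Deposited intensities (log axis, values under 30 drawn at 30) of the 17 probe sets called among those with a mean of at least 60, with 2 rapamycin arrays (circles) and 2 vehicle arrays (squares) for each. For each gene the rapamycin and vehicle arrays do not overlap, and 13 of 17 are lower in rapamycin livers.

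Pklr encodes the liver and red cell form of pyruvate kinase, the last enzyme of glycolysis. The called probe set read 293 and 436 on the rapamycin arrays, against 103 and 127 on the vehicle arrays. Both rapamycin arrays lay above both vehicle arrays, by 1.64 on the log2 scale (SE 0.33, 3.13-fold, adjusted p = 0.0128, limma). The call was lost after adjustment for the array set (log2 1.53, adjusted p = 0.233, limma). It was also lost with a floor of 6.31 (log2 1.64, adjusted p = 0.319, limma). The same held for a generalised log in place of the floor (log2 1.62, adjusted p = 0.364, limma). Without each array in turn the log2 difference was 1.36 to 1.93. A further Pklr probe set (101472_s_at) read 181 and 256, against 99 and 111. It lay in the same direction but short of the threshold (log2 1.04, adjusted p = 0.579, limma). After adjustment for the array set the log2 difference of 101472_s_at was 0.02. Slc2a2, the glucose transporter of the hepatocyte membrane, read 658 and 713 in rapamycin livers and 469 and 417 in vehicle livers, without overlap (log2 0.63, adjusted p = 0.201, limma).

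Ms4a1 encodes CD20, known as a surface protein of B cells. Its probe set read 475 and 329 in rapamycin livers, against at most 207 in vehicle livers. It averaged 402 ± 103 on the rapamycin arrays and 165 ± 59.4 on the vehicle arrays (SD, n = 2 each), and rose by 1.31 on the log2 scale (SE 0.22, 2.48-fold, adjusted p = 0.00219, limma). The groups do not overlap, and the call held after adjustment for the array set (log2 1.63, adjusted p = 0.00718, limma) and among the brighter probe sets (adjusted p = 0.00598, limma). It passed in 2 of the 4 fits that left out an array. Of 13 B cell and plasma cell markers on the array 8 were at or below 30 on all 4 arrays, among them Cd22, Cd79b and Blk. Cd79a, a chain of the B cell receptor complex, was higher on both rapamycin arrays (46 and 37, against 27 and 6), and Sdc1, which plasma cells and hepatocytes express, was lower on both (117 and 132, against 164 and 136). Ighm, the heavy chain of IgM, read 165 and 124, against 140 and 151, and overlapped, as did Pax5. The summed markers came to 1077 and 758, against 704 and 609. These sums include Ms4a1 itself, at 475 and 329 on the rapamycin arrays and at most 207 on the vehicle arrays. They therefore cannot show whether the other markers were higher as a group. The part of B cells in the result was not tested. Across the study the same Ms4a1 probe set read 569 to 742 in uninjected fasted mice and 458 to 504 in fasted vehicle mice at 0 h, against 220 to 330 in vehicle mice refed for 12 h, so both nonfasted vehicle arrays lie below all 31 other arrays, while the nonfasted rapamycin arrays reach the range of refed and fasted mice.

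Nrbp1, which encodes a pseudokinase, read 231 and 197, against 108 and 88 in vehicle, and rose by 1.13 on the log2 scale (SE 0.27, adjusted p = 0.0378, limma). Probe set 93798_at, which carries no gene name here and was picked out after its values were seen, read 729 and 809, against 378 and 364 (log2 1.05, adjusted p = 0.0312, limma). Neither overlaps between the groups, and neither passed in any fit that left out an array. Eif3m, a subunit of translation initiation factor eIF3, read 244 and 319, against 204 and 203 (adjusted p = 0.0437, limma). Sdhaf1, an assembly factor of succinate dehydrogenase, read 223 and 227, against 161 and 179 (adjusted p = 0.0244, limma). Those 2 changes were small, 1.37-fold and 1.33-fold. The remaining named rises were of dim probe sets whose vehicle arrays were all under the floor, so that their folds are bounds against 30. Snrpb2, a protein of the U2 spliceosomal particle, was at least 2.75-fold higher (85 and 80, against 0 and -73). Tcf7l1, a transcription factor of the Wnt pathway, was at least 1.96-fold higher (62 and 56, against 22 and -6). Adgrg3, an adhesion G protein-coupled receptor, was at least 1.37-fold higher (39 and 43, against 12 and 7).

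Among the genes that fell, Mknk2 encodes a kinase that phosphorylates the cap-binding protein eIF4E. It read 62 and 59 in rapamycin livers, against 144 and 161 in vehicle livers, and fell by 1.33 on the log2 scale (SE 0.28, 2.52-fold, adjusted p = 0.0219, limma). The Mknk2 call was lost in all 4 fits that left out an array and after adjustment for the array set (log2 -1.15, adjusted p = 0.375, limma). No other group except those at 3 h reached values as low. Lifr, the receptor for leukemia inhibitory factor, read 186 and 203, against 548 and 374, on the called probe set and fell by 1.22 (SE 0.28, adjusted p = 0.0283, limma). A further Lifr probe set, 104658_at, read 205 and 268, against 576 and 463 (adjusted p = 0.276, limma), whereas 103697_at read 199 and 178, against 160 and 130. The probe sets of this gene therefore disagree in direction. Erbb3, a receptor of the epidermal growth factor receptor family, averaged 145 ± 30.4, against 264 ± 54.5 (SD, n = 2 each), and fell by 0.87 (SE 0.18, adjusted p = 0.0191, limma).

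Ninj1 encodes a membrane protein that acts in adhesion and in plasma membrane rupture. It read 54 and 44 in rapamycin livers, against 117 and 110 in vehicle livers, and fell by 1.22 on the log2 scale (SE 0.13, 2.33-fold, adjusted p = 1.2e-05, limma). The groups are well apart, and without each array in turn the log2 difference was -1.37 to -1.07. After adjustment for the array set the call passed (log2 -1.20, adjusted p = 0.00211, limma). The set term was estimated on the rapamycin arrays at 3 and 6 h, where Ninj1 read 3 to 31 and 3 to 38. Most of these values lay at or near the floor, so hardly any shift could show, and the adjustment cannot decide the matter. The SE rests partly on groups wholly under the floor, such as vehicle and rapamycin at 0 h (at most -25 and 17). The Ninj1 call was lost, at a similar size, with a floor of 6.31 (log2 -1.22, adjusted p = 0.586, limma). It was also lost with a generalised log in place of the floor (log2 -1.12, adjusted p = 0.394, limma). Its mean over all arrays is under 60, because it was at most 42 in every fasted group and in mice refed for up to 6 h. Os9, an endoplasmic reticulum lectin that takes part in the disposal of misfolded glycoproteins, read 27 and 19, against 98 and 84, at least 3.02-fold lower (adjusted p = 0.000238, limma). Uqcc2, an assembly factor of respiratory complex III, read 22 and 17, against 81 and 84, at least 2.75-fold lower (adjusted p = 0.00126, limma). Both passed in all 4 fits without an array, and neither after adjustment for the array set (adjusted p = 0.0615 and 0.248, limma).

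Gtf3c1, a subunit of the RNA polymerase III factor TFIIIC, read 8 and 38, against 69 and 77 (log2 -1.11, adjusted p = 0.000558, limma). Without each array in turn the log2 difference was -1.28 to -0.94. The Gtf3c1 call was lost after adjustment for the array set (adjusted p = 0.0853, limma). At 0 h, where the array sets lie in the opposite order, Gtf3c1 was higher after rapamycin (log2 0.57, adjusted p = 0.0364, limma). The difference between these effects passed (-1.68, adjusted p = 0.000238, limma). Polr2g, a subunit of RNA polymerase II, read 40 and 47, against 95 and 86 (log2 -1.06, adjusted p = 0.0334, limma). Further falls were found in genes of varied roles. Dnajb6, a co-chaperone of Hsp70, read 53 and 102, against 199 and 187, but its second probe set read 52 and 55, against 64 and 66, with an adjusted p of 1 in limma. Dbt, the acyltransferase subunit of the branched-chain keto acid dehydrogenase, read 29 and 41, against 92 and 85. Slc7a2, a cationic amino acid transporter, read 85 and 53, against 169 and 144. All 3 fell by between 1.22 and 1.39 on the log2 scale. St3gal5, the synthase of ganglioside GM3, read 71 and 65, against 161 and 145 (log2 -1.17, adjusted p = 0.0378, limma). Cmas, which activates sialic acid for such transferases, read 44 and 56, against 97 and 85 (log2 -0.87, adjusted p = 0.0273, limma). Gsto1, an omega-class glutathione transferase, read 225 and 260, against 362 and 313, and F13b, the carrier subunit of coagulation factor XIII, read 247 and 256, against 310 and 314. Their falls were small, 1.39-fold and 1.24-fold.

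Cyp4a14 encodes a microsomal fatty acid omega-hydroxylase and is a classical target of the fatty acid receptor PPARα. It read 562 and 572 in rapamycin livers, against 944 and 697 in vehicle livers, and fell by 0.52 on the log2 scale (SE 0.09, 1.43-fold, adjusted p = 0.00314, limma). It passed after adjustment for the array set (log2 -0.59, adjusted p = 0.0328, limma). In every fasted or refed group it read at least 2283, so both nonfasted groups lie far below those groups. The SE and p-values for Cyp4a14 therefore rest mostly on the spread at those higher intensities. The 2 nonfasted vehicle arrays themselves differed, at 944 and 697 (SD 175). Probe set 98353_at, annotated to more than 1 gene, read 365 and 403, against 691 and 519, and fell by 0.64 (adjusted p = 0.00761, limma). Cyp4a genes are near-identical copies, and these probe sets may share transcripts. Cyp4a10 read 255 and 414, against 653 and 410 (log2 -0.67), and overlapped. Acot8, a peroxisomal thioesterase, read 39 and 50, against 86 and 90 (log2 -0.99, adjusted p = 0.161, limma). Of the 15 measured genes of peroxisomal and microsomal fatty acid oxidation Cyp4a14 alone passed, 4 were lower (26.7%, against 20.5% of all genes) and 3 higher (20%, against 12.9%) without overlap, and the median log2 difference was -0.04.

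Interferon-induced and antigen presentation genes lay mostly on the lower side in rapamycin livers. Of 27 measured, 2 fell (Psmb9 and Igtp) and none rose, where 0.84% of 5001 genes fell and 0.14% rose. Both rapamycin arrays lay below both vehicle arrays in 11 of 27, where this held for 20.5% of all genes, and above them in 1, where it held for 12.9%. At an unadjusted p under 0.05, 10 of 27 were lower, against 7.12% of all genes, and none was higher, against 2.98%. The median log2 difference of the list was -0.26, against 0 over all genes, and -0.11 to -0.26 without any of the 4 arrays in turn. After adjustment for the array set it was -0.16. The T and NK cell markers summed to 282 and 174, against 393 and 334. Of these 13 of 18 were at or below 30 on all 4 arrays, some far below 0, such as Cd3e (-88 and -66, against -43 and -57). Over the 2 markers that were tested the sums overlapped (295 and 241, against 317 and 294). Zap70, a kinase of T cell receptor signalling, was lower on both rapamycin arrays (132 and 110, against 199 and 143). Gzmb (31 and 18, against 11 and 10) and Il2rb (38 and 29, against 16 and 20) were higher on both. Lat (163 and 131, against 118 and 151) and Cd4 (126 and 34, against 74 and 51) overlapped. Gzma and Prf1 were under 30 on all 4 arrays. The part of these cells in the result was not tested.

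**Figure D3:**
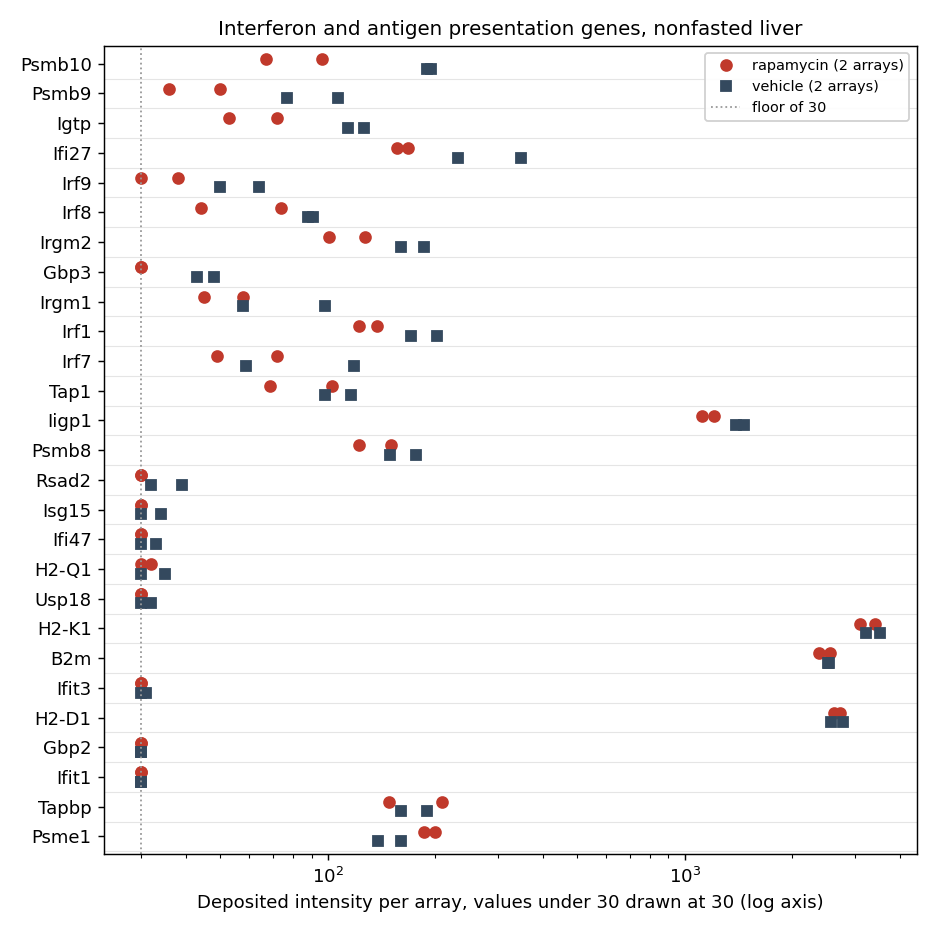
Deposited intensities (log axis, values under 30 drawn at 30) of 27 interferon and antigen presentation genes on 2 rapamycin arrays (circles) and 2 vehicle arrays (squares), sorted by log2 difference. The upper genes, from Psmb10 to Gbp3, are lower on both rapamycin arrays, and the class I genes H2-K1, H2-D1 and B2m overlap at far higher intensities.

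Psmb9, a catalytic subunit of the immunoproteasome, read 50 and 36 in rapamycin livers, against 107 and 77 in vehicle livers, and fell by 1.10 on the log2 scale (SE 0.26, adjusted p = 0.0402, limma). The fall held after adjustment for the array set (log2 -1.80, adjusted p = 0.00211, limma) and in 2 of the 4 fits without an array. It was lost with quantile normalization (adjusted p = 0.115, limma), with a floor of 6.31 (adjusted p = 0.659, limma) and with the generalised log (adjusted p = 0.689, limma). Psmb10, the second inducible subunit, read 67 and 96, against 189 and 195, without overlap (log2 -1.26, adjusted p = 0.287, limma). Psmb8, the remaining one, read 150 and 122, against 176 and 149, and overlapped narrowly. Igtp, an immunity-related GTPase, read 72 and 53, against 126 and 114, and fell by 0.96 (SE 0.23, adjusted p = 0.0405, limma). The Igtp call was lost after adjustment for the array set (log2 -0.57, adjusted p = 0.676, limma) and held in 1 of the 4 fits without an array. Its paralog Irgm2 averaged 114 ± 18.4, against 173 ± 18.4 (SD, n = 2 each; log2 -0.61, adjusted p = 0.395, limma). Ifi27, an interferon-induced mitochondrial protein, read 168 and 156, against 347 and 232 (log2 -0.81). Of the 4 interferon regulatory factor genes measured 3 were lower without overlap. Irf1 read 122 and 137, against 202 and 171, Irf8 read 74 and 44, against 88 and 91, and Irf9 read 38 and 29, against 64 and 50. Irf7 read 49 and 72, against 59 and 118, and overlapped. None of these factors passed the threshold. Psme1, an activator subunit of the proteasome, was the only member above in both rapamycin arrays (200 and 186, against 138 and 160).

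Interferon genes are known for short DNA elements in their promoters, the GAS element and the ISRE. Members with separated groups but no match, such as Psmb9, Psmb10 and Irf9, are not printed. Promoters of 4 members with separated groups that hold a match are printed. Each is the 250 bases before the RefSeq start site, build GRCm38.p6, read 5′ to 3′ on the gene's strand, with TTCNNNGAA (GAS, the same on both strands) and the ISRE core (GAAA, any 2 bases, then GAAA, on either strand) in capitals.
Igtp, chr11:58199306-58199555, plus strand: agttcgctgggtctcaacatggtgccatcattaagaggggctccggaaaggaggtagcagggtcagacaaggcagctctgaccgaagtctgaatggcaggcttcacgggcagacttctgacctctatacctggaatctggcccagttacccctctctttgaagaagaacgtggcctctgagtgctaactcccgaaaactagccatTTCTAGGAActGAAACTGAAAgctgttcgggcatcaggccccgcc
Irgm2, chr11:58214727-58214976, plus strand: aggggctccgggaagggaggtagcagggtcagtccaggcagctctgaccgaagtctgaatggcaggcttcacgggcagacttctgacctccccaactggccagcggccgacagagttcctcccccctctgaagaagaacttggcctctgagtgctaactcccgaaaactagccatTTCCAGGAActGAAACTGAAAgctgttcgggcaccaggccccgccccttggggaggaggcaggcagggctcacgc
Gbp3, chr3:142559794-142560043, plus strand: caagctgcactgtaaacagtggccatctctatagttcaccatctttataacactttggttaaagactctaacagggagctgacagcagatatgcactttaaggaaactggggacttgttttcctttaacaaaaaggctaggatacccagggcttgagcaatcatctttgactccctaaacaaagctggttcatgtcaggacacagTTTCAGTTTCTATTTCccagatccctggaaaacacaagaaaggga
Irf1, chr11:53769764-53770013, plus strand: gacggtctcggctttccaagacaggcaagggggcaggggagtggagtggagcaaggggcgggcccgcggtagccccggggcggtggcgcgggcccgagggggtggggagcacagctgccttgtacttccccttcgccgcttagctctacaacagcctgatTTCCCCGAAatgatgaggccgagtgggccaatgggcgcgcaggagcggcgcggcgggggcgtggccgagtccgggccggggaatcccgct

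The Igtp and Irgm2 windows each hold a GAS match followed 2 bases later by an ISRE core match, starting 45 and 34 bases before the Igtp start and 75 and 64 bases before the Irgm2 start. These paralogs share long stretches of sequence, so they are not independent examples. Gbp3, an interferon-induced guanylate-binding protein that read 23 and 24, against 48 and 43, has overlapping ISRE core matches at 45 and 39 bases before its start, and Irf1 has a GAS match at 90. Of 23 list members with a RefSeq window, 10 held the ISRE core (43.5%) and 5 the GAS letters (21.7%), against 3.05% and 7.14% of 27025 windows of the same length. Among the 9 of these with both rapamycin arrays below both vehicle arrays, 4 held the ISRE core (44.4%) and 4 the GAS letters (44.4%). For the ISRE core this is close to the share in the whole list. Whether either match goes with lower values was not tested. These are matches of letters only, before the RefSeq start site farthest upstream. The Psmb9 window held neither.

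Lysosomal genes were lower in number but none passed the threshold. Both rapamycin arrays lay below both vehicle arrays in 19 of 37 (51.4%, against 20.5% of all genes) and above them in 2 (5.41%, against 12.9%). At an unadjusted p under 0.05, 9 were lower (24.3%, against 7.12% of all genes) and none higher (against 2.98%). The median log2 difference was -0.21, and -0.12 after adjustment for the array set. Atp6v1h, a subunit of the vacuolar proton pump that acidifies the lysosome, read 44 and 54, against 135 and 86 (log2 -1.14, adjusted p = 0.12, limma), and Atp6v1d, a further subunit, read 29 and 46, against 80 and 79 (log2 -1.10, adjusted p = 0.083, limma). Abundant lysosomal transcripts differed less. Lamp1, a membrane glycoprotein of the organelle, read 1070 and 1088, against 1168 and 1373, and the protease gene Ctsb read 1072 and 1023, against 1104 and 1171. Of 18 autophagy genes 7 were lower (38.9%) and 4 higher (22.2%) without overlap, where 20.5% and 12.9% of all genes were. Their median log2 difference was -0.14, and 0.03 after adjustment for the array set, so the direction of this list is not settled. Gabarapl1, which encodes an autophagosome membrane protein, read 409 and 532, against 642 and 778 (log2 -0.60, adjusted p = 0.0738, limma), and Nbr1, a cargo receptor, read 137 and 136, against 192 and 224. Ulk1, the kinase that starts autophagy, read 74 and 146, against 69 and 72.

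**Figure D4:**
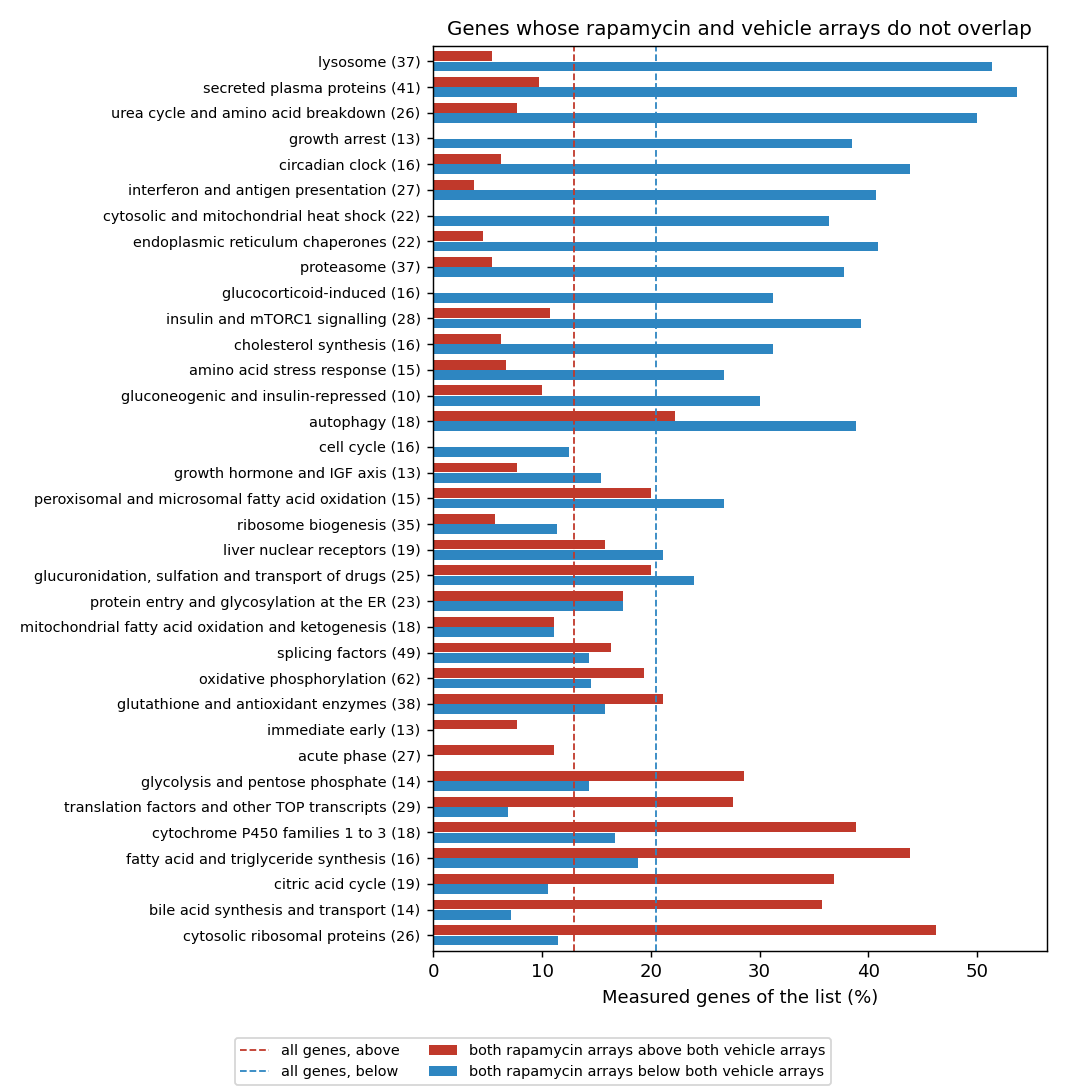
Percent of the measured genes of each list (number in parentheses) whose 2 rapamycin arrays both lie above (red) or both below (blue) the 2 vehicle arrays, for lists with at least 10 measured genes. Cell marker lists are not drawn. Dashed lines mark the same shares over all 5001 genes, 12.9% above and 20.5% below; lysosome, secreted plasma proteins and urea cycle have the longest blue bars, and cytosolic ribosomal proteins and fatty acid synthesis the longest red bars.

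Genes of hepatocyte function with high intensities were often slightly lower. Of 41 secreted plasma protein genes 22 were lower (53.7%) and 4 higher (9.76%) without overlap, where 20.5% and 12.9% of all genes were. The median log2 difference was -0.10, and -0.04 after adjustment for the array set. F13b alone passed, where 0.84% of all genes fell. The differences were small for abundant transcripts: Apoa1 read 5293 and 4892, against 5672 and 5469, and Apoe read 5785 and 5644, against 6507 and 6267. Apoa4, an apolipoprotein of triglyceride-rich particles, differed more, at 342 and 352, against 540 and 522 (log2 -0.61, adjusted p = 0.485, limma). Of 26 genes of the urea cycle and amino acid breakdown 13 were lower (50%) and 2 higher (7.69%) without overlap, against the same 20.5% and 12.9%. Their median was -0.16, and -0.08 after adjustment for the array set, and none passed. Oat, ornithine aminotransferase, read 563 and 530, against 1024 and 828 (log2 -0.75, adjusted p = 0.0738, limma). Agxt, which detoxifies glyoxylate, read 307 and 266, against 547 and 571 (log2 -0.97, adjusted p = 0.119, limma), and Tat, tyrosine aminotransferase, read 1231 and 1482, against 2216 and 2012. The urea cycle enzymes themselves were close: Cps1 read 3554 and 3684, against 3975 and 3844.

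Protein folding genes with separated groups were also mostly lower. Of 22 endoplasmic reticulum chaperones 9 were lower (40.9%) and 1 higher (4.55%) without overlap, where 20.5% and 12.9% of all genes were. At an unadjusted p under 0.05, 5 were lower (22.7%, against 7.12% of all genes) and 1 higher (4.55%, against 2.98%). Hsp90b1, the Hsp90 of this compartment, read 960 and 1079, against 1556 and 1463 (log2 -0.57, adjusted p = 0.135, limma), and the disulfide isomerase gene Pdia6 read 167 and 122, against 310 and 330. The 94207_at probe set of Pdia6 passed, at 12 and 0, against 44 and 64, at least 1.77-fold lower (adjusted p = 0.0128, limma). The lectin chaperone gene Canx lay the other way, at 135 and 104, against 28 and 21, at least 3.95-fold higher but with an adjusted p of 0.0975 in limma. After adjustment for the array set the list's median turned to 0.16, against -0.29 without it, so the direction of this list is not settled. Of 22 cytosolic and mitochondrial heat shock genes 8 were lower (36.4%, against 20.5% of all genes) and none higher (against 12.9%) without overlap, and none passed. Hsph1, an Hsp110 chaperone, read 33 and 41, against 173 and 112 (log2 -1.92, adjusted p = 0.0852, limma), and Hsp90aa1 read 257 and 301, against 460 and 403. Of 37 proteasome subunits 14 were lower (37.8%, against 20.5% of all genes) and 2 higher (5.41%, against 12.9%) without overlap, and Psmb9 alone passed.

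Fatty acid and triglyceride synthesis genes were more often above than below in rapamycin livers, and none passed. Both rapamycin arrays were above both vehicle arrays in 7 of 16 (43.8%, against 12.9% of all genes) and below in 3 (18.8%, against 20.5%). Fasn, fatty acid synthase, read 762 and 1193, against 614 and 439 (log2 0.88, 95% interval -0.14 to 1.89). Elovl6, an elongase of saturated fatty acids, read 148 and 290, against 107 and 84 (log2 1.13, adjusted p = 0.196, limma), and Me1, which supplies NADPH, read 161 and 395, against 144 and 107 (log2 1.02, adjusted p = 0.191, limma). In both the second rapamycin array carried most of the difference. Srebf1, which encodes the transcription factor that drives this pathway, read 822 and 769, against 628 and 428 (log2 0.62, 95% interval -0.50 to 1.74), and Scd1, the desaturase, read 3464 and 3149, against 2845 and 2913 (log2 0.20, 95% interval -1.08 to 1.48). Elovl2 and Elovl5, which lengthen polyunsaturated fatty acids, were below instead (285 and 257, against 426 and 388, and 1198 and 1462, against 1619 and 1520). The 16 cholesterol synthesis genes gave 1 above (6.25%, against 12.9% of all genes) and 5 below (31.2%, against 20.5%), with none passing; Idi1 read 497 and 685, against 658 and 541.

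Transcripts of the translation machinery were on the higher side by small amounts. Of 26 cytosolic ribosomal protein genes 12 were above (46.2%) and 3 below (11.5%) without overlap, where 12.9% and 20.5% of all genes were, none at an unadjusted p under 0.05, with a median log2 difference of 0.08. Rps19 read 684 and 653, against 494 and 524, and Rps18 read 1545 and 1563, against 1398 and 1313. Of 29 genes of translation factors and other transcripts with a terminal oligopyrimidine tract (TOP, the motif through which mTORC1 controls translation of an mRNA) 8 were above (27.6%, against 12.9% of all genes) and 2 below (6.9%, against 20.5%) without overlap. Eif3e, an eIF3 subunit, read 147 and 270, against 117 and 108 (log2 0.83, adjusted p = 0.111, limma). Gas5, a noncoding TOP transcript, read 233 and 304, against 183 and 181 (log2 0.55, adjusted p = 0.218, limma). Eif4b, which helps the helicase eIF4A, read 156 and 328, against 149 and 171, and overlapped. Without rapamycin array 1 the Eif4b difference was 1.04 with an adjusted p of 0.0231 in limma, so the call rests on which array is kept.

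Drug-metabolizing cytochrome P450 genes of families 1 to 3 were above without overlap in 7 of 18 (38.9%, against 12.9% of all genes) and below in 3 (16.7%, against 20.5%), and none passed. Cyp2b10, the prototype target of the receptor CAR, read 459 and 601, against 257 and 275 (log2 0.98, adjusted p = 0.297, limma). Cyp3a11, an enzyme that oxidizes many drugs, read 2661 and 2567, against 2538 and 2269 (log2 0.12, 95% interval -0.13 to 0.38). Of the citric acid cycle genes 7 of 19 were above (36.8%, against 12.9%) and 2 below (10.5%, against 20.5%). Their median log2 difference was -0.003, and it moved to 0.24 without rapamycin array 1 and to -0.08 without rapamycin array 2. Cs, citrate synthase, read 299 and 363, against 266 and 217.

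Genes of the mTORC1 pathway itself, fixed for this comparison, did not pass. Mtor read 36 and 60 in rapamycin livers, against 78 and 68 in vehicle livers (log2 -0.65, adjusted p = 0.387, limma). Fkbp1a, the drug's binding partner, read 180 and 205, against 213 and 208, with a log2 interval of -0.43 to 0.16. Eif4ebp1, a translation repressor that mTORC1 inactivates, read 31 and 33, against 34 and 97, and its difference rests on vehicle array 2. Without vehicle array 1 the Eif4ebp1 difference was -1.60 with an adjusted p of 0.00432 in limma. Sesn1, a stress-induced inhibitor of the pathway, read 29 and 31, against 65 and 66 (log2 -1.10, adjusted p = 0.295, limma). Of the 28 insulin and mTORC1 signalling genes measured 11 were below (39.3%, against 20.5% of all genes) and 3 above (10.7%, against 12.9%) without overlap. Igf1, the hepatic growth factor, read 1495 and 1393, against 1772 and 1696 (log2 -0.27, 95% interval -0.63 to 0.10), and the cell cycle gene Ccnd1 read 60 and 91, against 79 and 64.

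Of 10 genes that insulin represses or that act in gluconeogenesis 3 were below and 1 above without overlap, where 20.5% and 12.9% of all genes were. None passed, and 3 were lower and none higher at an unadjusted p under 0.05, against 7.12% and 2.98% of all genes. Pck1, the gluconeogenic carboxykinase, read 386 and 740, against 1216 and 1335, without overlap (log2 -1.25, 95% interval -2.06 to -0.45, adjusted p = 0.154, limma). Igfbp1, a binding protein of insulin-like growth factors, read 21 and 205, against 227 and 297, so that the 2 rapamycin arrays lay far apart, with the first under the floor. Without rapamycin array 2 the Igfbp1 difference was -3.11 with an adjusted p of 0.043 in limma. G6pc, glucose-6-phosphatase, read 486 and 1393, against 1027 and 1071, and overlapped. Ppargc1a and Irs2 were under 30 on all 4 arrays, and Pdk4 was near the floor (38 and 34, against 35 and 38). Cpt1a, which admits fatty acids to mitochondria, read 458 and 551, against 608 and 549 (log2 -0.20, 95% interval -0.63 to 0.22). Of 16 clock genes 7 were below (43.8%, against 20.5% of all genes) and 1 above (6.25%, against 12.9%) without overlap, and with quantile normalization 5 were below. Their median log2 difference was -0.21, and -0.03 both after adjustment for the array set and without rapamycin array 1. Per3 read 71 and 67, against 120 and 103, and Bhlhe40 read 152 and 139, against 104 and 58.

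Some liver genes varied within a group by more than between groups. The acute phase gene Saa2 read 5029 and 2807 on the rapamycin arrays, against 125 and 3949 on the vehicle arrays. Lcn2, a further acute phase gene, read 1778 and 256, against 92 and 816. The metallothionein gene Mt2 read 1618 and 250, against 623 and 1505, and Cyp7a1, which starts bile acid synthesis from cholesterol, read 111 and 300, against 275 and 63. In each of these 4 genes the groups overlap. Between the 2 rapamycin arrays 22 probe sets differed by more than 2 on the log2 scale, against 10 between the 2 vehicle arrays. In the authors' deposited table the highest ratio of rapamycin to vehicle is that of Sdc4 (10.09), which rests on rapamycin array 1 alone, and the lowest that of Hsph1 (0.26).

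The drug effect was set beside that in adult male mice fasted for 22 h, injected with rapamycin (10 mg/kg) or vehicle and then refed for 12 h (3 arrays each), all of whose 6 arrays lie in 1 array set and are shared with no nonfasted group. There 16 probe sets rose (0.244%) and 52 fell (0.792%). Of the 66 probe sets called in nonfasted mice 4 were also called at 12 h, 38 had the same sign, 22 the opposite sign and 6 a difference of 0. Over all 6568 probe sets tested 2481 had the same sign, 2524 the opposite sign and 1563 a difference of 0 in either state. The difference between the effects, nonfasted minus 12 h, passed for 22 probe sets (0.335%), among them Ninj1, Psmb9, Os9, Adgrg3 and Tec. At 12 h Ninj1 differed by 0.22 on the log2 scale and Psmb9 by 0.70, neither passing. Among the brighter probe sets no difference passed in limma (smallest adjusted p = 0.0637; 178 higher and 144 lower at an unadjusted p under 0.05). Pklr lay the same way in both states, with 1.64 in nonfasted mice and 0.99 at 12 h, and the difference of these did not pass (0.66, adjusted p = 0.777, limma). For Cyp4a14 the log2 difference was -0.52 in nonfasted mice and -0.01 at 12 h (difference -0.50, adjusted p = 0.0632, limma), and the difference from 0 h, where the drug effect was close to 0, passed (-0.51, adjusted p = 0.026, limma).

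**Figure D5:**
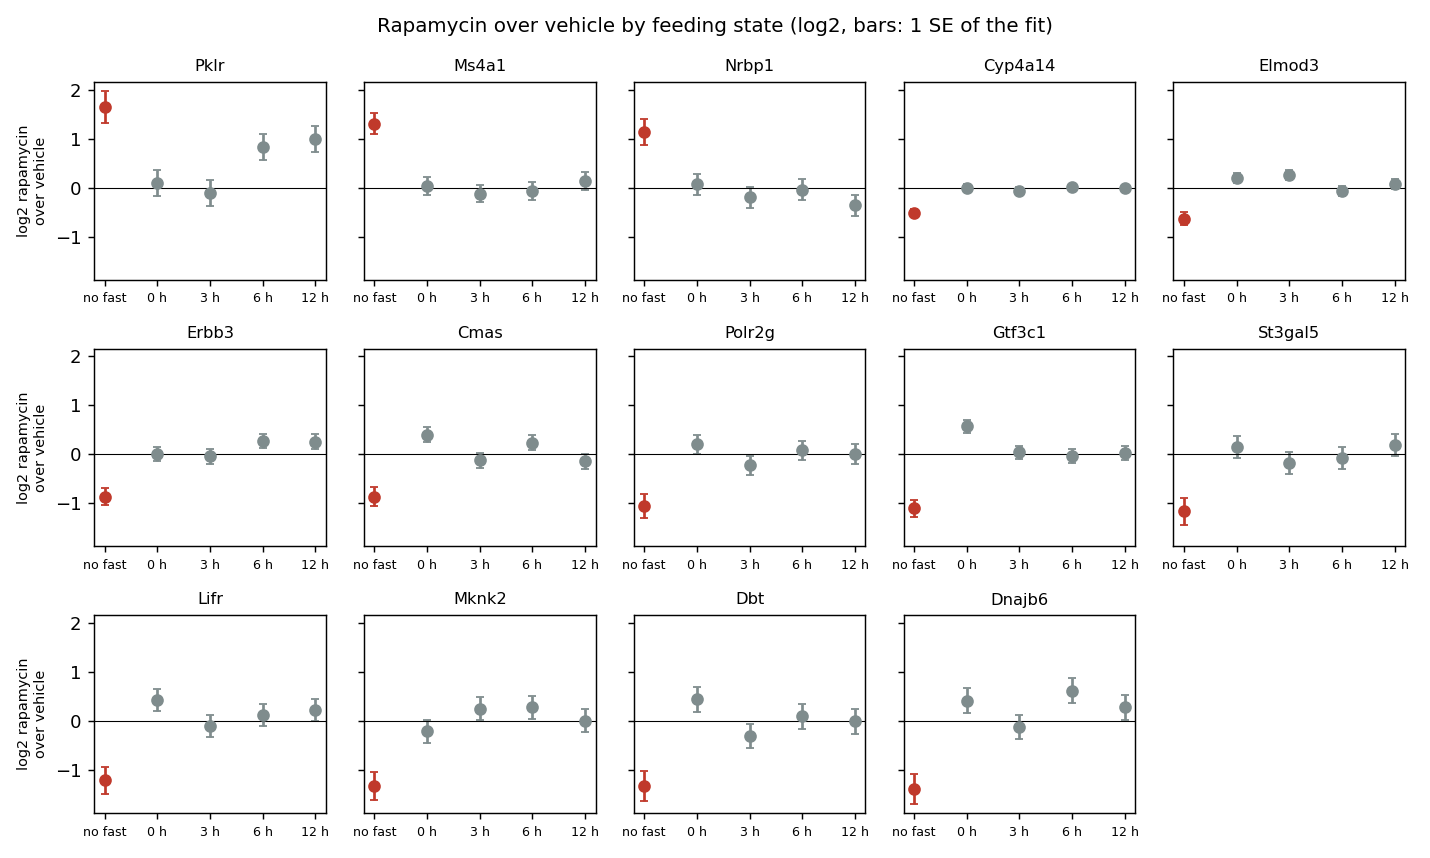
Log2 difference of rapamycin over vehicle (vertical axis, bars 1 SE of the fit) in nonfasted mice (red) and at 0, 3, 6 and 12 h of refeeding (grey) for the 14 named genes among the 17 brighter probe sets called in nonfasted mice. Pklr is also above 0 at 6 and 12 h, while most other genes lie near 0 in the refed groups.

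At 0 h, 2 h after the same injections and with the fast unbroken (3 arrays each), the array sets lie in the opposite order, with the rapamycin arrays in the set with fewer values at or below 0. An additive log2 shift between the sets therefore cancels in the mean of the nonfasted and 0 h effects where values lie above the floor of 30. Where the 0 h values lie at the floor no opposite shift can show, and the mean does not remove it. Of the 66 probe sets called in nonfasted mice 17 had the same sign at 0 h, 25 the opposite sign and 24 a difference of 0. The difference between the 2 states passed for 92 probe sets (1.4%), and for 2 after adjustment for the array set. In their mean 7 probe sets rose (0.107%) and 12 fell (0.183%). Ms4a1 and Tcf7l1 were among the rises. Tec, a tyrosine kinase of blood cells, was among the falls (15 and 27, against 38 and 48, at least 1.42-fold lower in nonfasted mice, adjusted p in the mean 0.000697, limma). The effects at 0 h were 0.04 for Ms4a1, 0.07 for Tcf7l1 and -0.07 for Tec, so these means rest on the nonfasted arrays. Tcf7l1 read -10 to 35 on the rapamycin arrays and -8 to 20 on the vehicle arrays at 0 h, mostly under the floor. For Ms4a1 the difference between the states passed (1.27, adjusted p = 0.0229, limma). Commd9, which encodes a subunit of an endosomal sorting complex, was the reverse case, with 0.19 in nonfasted mice and 1.07 at 0 h, and Limd1 was under 30 on all 4 nonfasted arrays. No probe set with a mean of at least 60 passed in the mean of both states in limma (smallest adjusted p = 0.1; 341 in either direction at an unadjusted p under 0.05).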

How the data were processed

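Liver RNA of 33 mice was hybridised to Affymetrix MG-U74Av2 arrays, and the 4 nonfasted arrays were grouped by their titles. The deposited intensity values, 1 per probe set, are linear and can be negative. Per the file headers the authors scaled the arrays and used a floor of 30, and the authors' ratio columns hold floored group means of rapamycin over vehicle. Detection calls deposited by the authors were counted over the arrays, 2989 to 5714 present on each. A further 66 columns of per-array values were not used. Annotation gave 10855 probe sets 1 symbol, 396 several and 1237 none.

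Values were floored at 30 and taken to log2, and 6568 probe sets called present on at least 3 arrays were kept, without the 66 control probe sets. A limma fit (version 3.58.1, R 4.3.3) with 11 group means (22 residual and 0.515 prior degrees of freedom) gave each contrast, with Benjamini-Hochberg adjustment over 6568 and a threshold of 0.05. No source says that arrays of a group came from separately processed animals, so p-values measure the spread between these arrays. An exact permutation test of 2 against 2 cannot go below a two-sided p of 0.333. On simulated data the fit called too many unchanged probe sets near the floor and kept close to the threshold at a mean of at least 60, so those counts stand beside the others. A gene was represented by its probe set of highest mean. The text names the 8 largest rises and falls past the threshold whose higher group lies above 30 on each array, up to 3 passing members of each list, a fixed set of pathway genes, and those that passed in the mean of the nonfasted and 0 h effects. Fewer than 8 rises met this. The comparison, lists and genes were chosen with earlier results of these data known. Numbers shared by nonfasted arrays did not pair them (correlation of deviations -0.17). Alternatives changed the floor, scaling, filter, array set, block, arrays and log transform.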

Additional observations from a re-analysis of the deposited data

Results flagged for a closer look

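Drug effects that differed between feeding states by limma's test of the difference were singled out among the named genes. For nonfasted minus 12 h the log2 differences were -1.44 for Ninj1 (adjusted p = 5.9e-05), -1.79 for Psmb9 (adjusted p = 0.0129), -1.54 for Os9 (adjusted p = 0.0112), -0.51 for Tec (adjusted p = 0.00277) and 0.54 for Adgrg3 (adjusted p = 0.000124). These comparisons share no arrays. At 12 h Psmb9 read 49 to 64 on the rapamycin arrays and 15 to 46 on the vehicle arrays.

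For nonfasted minus 0 h, where the array sets lie in opposite order, the rises were 1.79 for Snrpb2, 1.27 for Ms4a1, 0.90 for Tcf7l1, 0.52 for Adgrg3 and 0.66 for Sdhaf1, with limma adjusted p between 0.000238 and 0.049. The falls were -1.80 for Dnajb6, -1.77 for Dbt, -1.71 for Uqcc2, -1.60 for Os9, -1.45 for Igtp, -1.22 for Ninj1, -0.51 for Cyp4a14 and -0.44 for Tec, with limma adjusted p between 0.000342 and 0.026. The difference of -0.58 for Limd1 (adjusted p = 0.013, limma) is its 0 h rise with the sign turned, since all 4 nonfasted arrays were under 30. Os9 and Ninj1 read under 30 on every array at 0 h, so their differences are the nonfasted effects alone. After adjustment for the array set, 2 of 6568 probe sets passed for this difference, against 92 without it.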

How the results depend on the processing

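Counts are of probe sets that passed in limma, and the cause of each shift was not tested except where stated. Nonfasted rapamycin over vehicle gave 11 higher and 55 lower; a floor of 6.31 gave 5 and 61, quantile normalization 17 and 54, scaling to 1 trimmed mean 22 and 32, an array set term 7 and 13, that term with the lower floor 4 and 2, and a fit of the 4 arrays alone 3 and 18, with fewer arrays to estimate the spread. Chosen after seeing the data were a generalised log in place of the floor (2 and 4) and a mean of at least 60 (4 and 13, with fewer probe sets tested). Of the 66 calls 25 were shared with the floor of 6.31, 51 with quantile normalization and 3 with the generalised log. Leaving out 1 array gave 6 to 23 higher and 30 to 50 lower. The replicate block gave 5 and 40 and the crossed pairing 5 and 41; the arrays share only a number. A floor of 15 or 60, other detection filters and a trended robust fit stayed within 1.5 times. Os9 turned to 0.63 (adjusted p = 0.927, limma) with the array set and the lower floor together.

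In the mean of nonfasted and 0 h (7 higher, 12 lower) the array set gave 11 higher, the replicate block 4 higher, quantile normalization 25 lower, the generalised log 1 and 0 (353 and 236 at an unadjusted p under 0.05), and a mean of at least 60 gave 0 and 0. At 12 h the 68 calls became 21 with the lower floor, 44 with the replicate block, 19 with the generalised log and 26 at a mean of at least 60. For nonfasted minus 12 h the 22 became 36 with quantile normalization, 14 with the array set, 1 with the generalised log and 0 at a mean of at least 60. For nonfasted minus 0 h the 92 became 410 with the lower floor, 2 with the array set, 565 with the generalised log and 28 at a mean of at least 60. Many values near the floor limit what can be measured.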
